A study of Mus with 4 samples.

Results

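Of the 18400 m6A peaks listed for *Wtap* flox/flox mice, 1208 (6.57%, 95% Wilson interval 6.22% to 6.93%) shared at least 1 exonic base with a listed peak on the opposite strand, and of the 18693 peaks listed for *Wtap*-BKO mice, 1070 (5.72%, interval 5.4% to 6.07%) did. These peaks were chosen by position alone, as those whose blocks overlap the blocks of another peak of the same list, on the same chromosome and the other strand. They formed 512 gene pairs in the *Wtap* flox/flox list and 455 in the *Wtap*-BKO list, and 318 gene pairs were present in both. Pairs of well-known genes among the 318 include *Thra* with *Nr1d1*, *Slirp* with *Snw1*, *Ppp2r1b* with *Sik2*, *Fam151a* with *Acot11* and *Stk11* with *Cbarp*.

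The 2 lists were made by MeRIP-seq from iBAT, the interscapular brown fat depot, of 8-week-old chow-fed mice on a C57BL/6 background. Both genotypes carry floxed *Wtap* alleles. The *Wtap* flox/flox controls have no Cre, and *Wtap*-BKO mice also carry *Ucp1*-iCre, in which Cre is expressed from the *Ucp1* locus and therefore in brown adipocytes, so that other cells of the tissue keep *Wtap*. Each list rests on 1 immunoprecipitate (IP) and 1 input, 4 samples in all, each a pool of 8 mice, and with 1 pool per genotype no comparison between genotypes has a replicate check. The sequencing depth behind the lists is unknown.

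N6-methyladenosine (m6A) is a modification of adenosines in RNA that is written by a complex of METTL3, METTL14 and the adaptor WTAP, and it affects the splicing, stability and translation of mRNA. MeRIP-seq pulls down fragments of poly(A)+ RNA with an antibody to m6A, and transcript stretches over-represented in the IP against the input are listed as peaks. Neighbouring genes on opposite strands may overlap, most simply where 2 convergent genes share their 3ʹ ends (tail to tail) or 2 divergent genes share their 5ʹ ends (head to head), and the same bases then belong to exons of both. A peak there is assigned to a gene by strand only if the sequencing library keeps the strand of the RNA. The labels do not state that the kit used here does, and the strand setting of the peak calling is not given in the sources used here. Whether the reads from the 2 genes of a pair were told apart is therefore not known. A peak marks a position and does not measure how much transcript was present. The genome build of the peak positions is GRCm38.p6 in the submitters' processing notes.

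The lists held the markers that the tissue label implies. Of 10 brown adipocyte markers, 10 had a peak in the *Wtap* flox/flox list and 9 in the *Wtap*-BKO list. The *Wtap* flox/flox and *Wtap*-BKO counts were 6 and 7 of 8 for macrophage markers, 0 and 3 of 8 for T/B lymphocyte markers, 6 and 6 of 7 for fibroblast markers, 4 and 5 of 5 for endothelial markers and 2 and 6 of 7 for skeletal muscle markers. Among these, the markers with a peak in an opposite-strand pair were *Prdm16* in the control list, *Cidea* and *Adrb3* in the *Wtap*-BKO list and *Csf1r* in both. The cell type markers that differ between the lists move with genotype, and their part in the comparisons below was not tested.

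The opposite-strand peaks were close to the other peaks in length and fold enrichment. They covered a median of 241 exonic bases in the *Wtap* flox/flox list, where the other peaks covered 240, and 210 in the *Wtap*-BKO list, where the other peaks also covered 210. The median fold enrichment, the authors' ratio of IP over input within 1 genotype, was 6.18 against 6.60 for the other peaks in the control list and 4.55 against 4.66 in the *Wtap*-BKO list. A false discovery rate (FDR) under 1e-05 was given for 67.3% of the opposite-strand and 62.8% of the other peaks in the control list, and for 60.4% and 58.2% in the *Wtap*-BKO list. The peaks of the 2 lists were called separately and a common scale of their fold enrichments is not stated, so each ratio of fold enrichments given here is taken within 1 list.

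They differed from the other peaks in the genes that carried them. A gene identifier without a symbol carried 352 of the opposite-strand peaks of the control list (29.1%, interval 26.6% to 31.8%), against 931 of the other 17192 peaks (5.42%, interval 5.09% to 5.76%). The *Wtap*-BKO shares were 30.6% and 5.14%. Of the 948 genes without a symbol in the control list, 252 (26.6%) had no peak other than opposite-strand peaks, against 260 of 8521 named genes (3.05%), and in the *Wtap*-BKO list these shares were 26.5% and 2.66%. A gene with few peaks meets this condition more easily, and the number of peaks per gene was not matched. Over all genes, 998 of 9732 (10.3%) had at least 1 opposite-strand peak in the control list and 884 of 9713 (9.10%) in the *Wtap*-BKO list. For 535 control genes (5.50%) and 501 *Wtap*-BKO genes (5.16%) every listed peak was of this kind.

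By chromosome, the share of opposite-strand peaks in the control list ran from 3.13% on chromosome X (13 of 416 peaks) and 3.20% on chromosome 16 to 9.55% on chromosome 9 (100 of 1047). In the *Wtap*-BKO list it ran from 1.88% on chromosome 16 (10 of 532) and 2.15% on chromosome X to 9.01% on chromosome 7 (137 of 1520), leaving aside the mitochondrial chromosome, where 2 of 12 peaks formed a pair. Chromosomes 16 and X had the lowest shares in both lists.

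The overlaps were mostly extensive. The 1208 control peaks formed 630 peak pairs at 578 separate loci, of which 529 held exactly 2 peaks, and the 1070 *Wtap*-BKO peaks formed 558 peak pairs at 513 loci, of which 472 held 2 peaks. No locus held more than 4 peaks. A pair shared a median of 181 bases in the control list (25th percentile 121, 75th percentile 291, range 1 to 1434) and 160.5 in the *Wtap*-BKO list (107 and 240, range 1 to 1170). The shared bases made up at least 50% of the shorter peak in 566 of 630 pairs (89.8%) and 499 of 558 pairs (89.4%). The rule itself asks for only 1 shared base. Just inside it, *Ocel1* and *Nr2f6* shared 1 base in the control list, with fold enrichments of 1.94 and 2.25, and *Gm10638* and *Siah1a* shared 1 base in the *Wtap*-BKO list, with 9.86 and 7.52. Just outside it were *Kbtbd4* and *Ndufs3* in the control list, whose peaks of 4.20 and 4.12 lay 2 bases apart, and *Trp53i11* and *Tspan18* in the *Wtap*-BKO list, whose peaks of 3.11 and 3.41 touched without sharing a base. At the other end, the shorter peak lay wholly within the longer in 208 (33%) and 173 (31.0%) pairs.

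Long overlaps lay both in pairs of named genes and in pairs with a gene of no symbol. *Phospho1* (ENSMUSG00000050860), a phosphatase of phosphocholine and phosphoethanolamine, and *Abi3* (ENSMUSG00000018381), a regulator of the actin cytoskeleton, shared 1434 bases at chr11:95830642-95832075 in the control list. The gene pair of the glycosyltransferase *Chpf2* and the SWI/SNF subunit *Smarcd3* shared 1314 bases at chr5:24591181-24592494 in the same list. *Kctd12*, which had 4 opposite-strand peaks in the control list and 5 in the *Wtap*-BKO list, had them against a single gene without a symbol (ENSMUSG00000097142), and their longest overlap was 991 bases in the control and 977 in the *Wtap*-BKO list. Named genes with 4 opposite-strand peaks were *Zfp36l1*, an mRNA decay factor, and *Zfp106* in the control list, and *Abi3* and *Tshz2* in the *Wtap*-BKO list.

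The 649 gene pairs found in either list involved 1257 genes, of which 847 are protein coding in the RefSeq gene table, 376 have no symbol, 4 are long noncoding RNAs, 2 are transcribed pseudogenes and 28 have a symbol that was not placed in that table. The pair of a named gene with a gene of no symbol was the most frequent kind, with 255 of 512 control pairs (49.8%) and 240 of 455 *Wtap*-BKO pairs (52.7%). Next came pairs of 2 named genes, with 202 and 165. A named gene was paired with a Gm or Rik gene in 31 and 26 pairs, and neither gene had a symbol in 17 and 18.

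**Figure D1:**
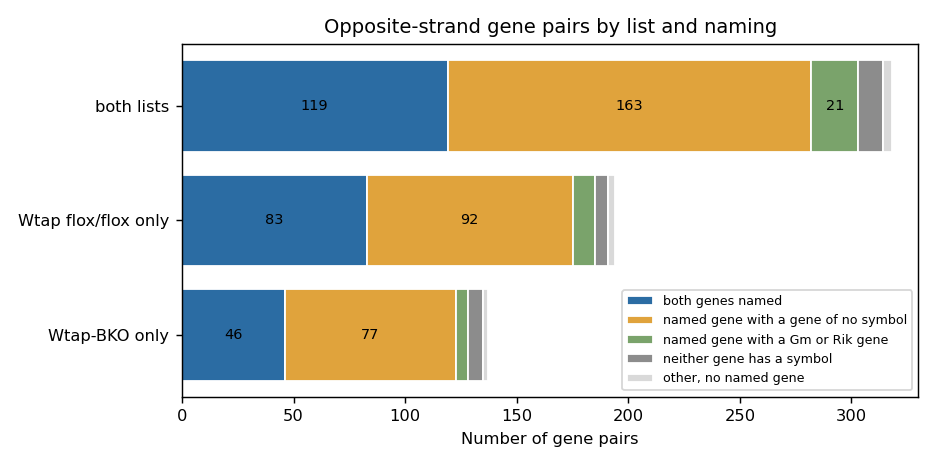
Number of gene pairs (horizontal axis) found in both lists, in the *Wtap* flox/flox list only or in the *Wtap*-BKO list only, divided by how the 2 genes are named. Pairs found in both lists are the longest bar (318), and a named gene with a gene of no symbol is the largest segment of each bar (163, 92 and 77 pairs).

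Where both genes had a position in the gene table, tail to tail was the most frequent arrangement. In the control list 213 pairs could be placed, and 112 of them (52.6%, interval 45.9% to 59.2%) were tail to tail, 25 (11.7%) head to head and 15 (7.04%) had one gene inside the other. For the remaining 61 (28.6%) the RefSeq spans did not overlap, although peaks assigned by the authors to Ensembl gene models did. For *Wtap*-BKO mice, 86 of 172 placed pairs (50%) were tail to tail, 20 (11.6%) head to head, 14 (8.14%) nested and 52 (30.2%) without overlapping spans. Several pairs described below have no overlapping RefSeq spans. In both lists these include *Il4i1*/*Atf5*, *Zfp652*/*Abi3*, *Cebpb*/*Tmem189* and *Csf1r*/*Hmgxb3*. In the control list only they include *Glmp*/*Tmem79*, *Mrps34*/*Mapk8ip3*, *Vps4a*/*Pdf* and *Zbtb8os*/*Zbtb8a*, and in the *Wtap*-BKO list only *Dvl2*/*Acadvl* and *Wdr83os*/*Wdr83*. Among pairs found in both lists, 69 of 125 (55.2%, interval 46.5% to 63.6%) were tail to tail, against 43 of 88 (48.9%) of those found in the control list only and 17 of 47 (36.2%, interval 24.0% to 50.5%) of those found in the *Wtap*-BKO list only. These intervals overlap.

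The opposite-strand peaks lay near gene ends more often than the other peaks did, at both ends. Genes on opposite strands overlap most simply at their ends, so the rule that chose these peaks itself favours such positions. Among peaks inside placed genes spanning at least 3000 bp, the 3ʹ end of the gene was at most 1000 bp from the peak centre for 214 of 663 opposite-strand peaks of the control list (32.3%, interval 28.8% to 35.9%) and for 20.3% of the other peaks. In the *Wtap*-BKO list the shares were 28.1% (160 of 569, interval 24.6% to 32.0%) and 18.1%. For the 5ʹ end and the same window they were 16.7% against 9.85% in the control list and 19.2% against 11.1% in the *Wtap*-BKO list. The Wilson intervals cover counting error alone and take each peak as independent of the rest, and since opposite-strand peaks come in pairs, theirs are too narrow.

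The 2 peaks of a pair had closely similar fold enrichments in each list. The median control pair differed by a factor of 1.11, and 49.2% of the 630 pairs (interval 45.3% to 53.1%) were within 1.1-fold of each other. The median *Wtap*-BKO pair differed by a factor of 1.13, and 46.2% of 558 pairs (interval 42.1% to 50.4%) were within 1.1-fold. Within 1.5-fold were 73.5% of control and 76.2% of *Wtap*-BKO pairs. In 41 control pairs (6.51%) and 44 *Wtap*-BKO pairs (7.89%) the fold enrichment and the FDR were both equal as printed. Across pairs, the log2 fold enrichments of the plus-strand and minus-strand peaks had a Pearson correlation of 0.78 in the control list (n = 630) and 0.81 in the *Wtap*-BKO list (n = 558). The points of a pair share genomic bases and may share reads, so these correlations are descriptions only.

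**Figure D2:**
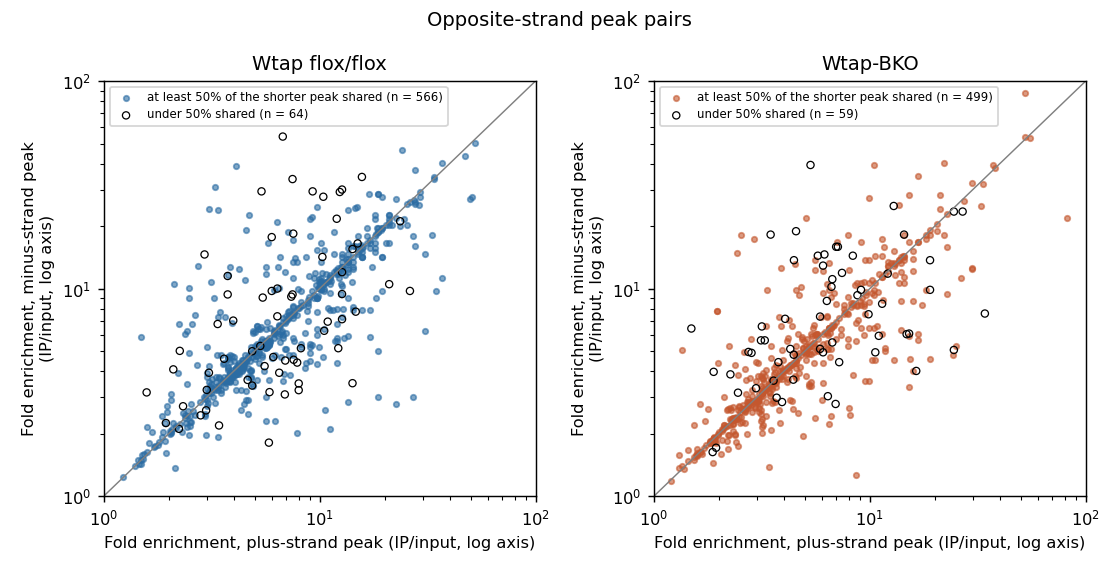
Fold enrichment (IP over input) of the plus-strand peak (horizontal, log axis) against that of the minus-strand peak (vertical, log axis) for the 630 peak pairs of the *Wtap* flox/flox list and the 558 of the *Wtap*-BKO list, with the line of equal values. Filled points share at least 50% of the shorter peak (566 and 499 pairs) and crowd along the line, and open points share less (64 and 59 pairs) and scatter more widely.

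The similarity went with the extent of the overlap. Where the shared bases made up at least 90% of both peaks, the median pair differed by a factor of 1.04 in the control list (n = 206) and 1.02 in the *Wtap*-BKO list (n = 164), and 76.7% and 81.1% of the pairs were within 1.1-fold. Where under 50% of the shorter peak was shared, the median factors were 1.67 (n = 64) and 1.71 (n = 59), and 10.9% and 10.2% were within 1.1-fold. Other kinds of peak pair served for comparison. Peaks of different genes on the same strand that share bases were within 1.1-fold in 59.0% of 278 control and 61.6% of 268 *Wtap*-BKO pairs. Neighbouring peaks on 1 gene were within 1.1-fold in 9.42% of 7995 control and 10.5% of 8411 *Wtap*-BKO pairs. Opposite-strand pairs stood nearer to the same-strand pairs than to neighbouring peaks of 1 gene, and in both lists their interval lay below that of the same-strand pairs (53.1% to 64.6% in the control and 55.6% to 67.2% in the *Wtap*-BKO list), narrowly so in the control list. The 2 sets differ in extent of overlap. With at least 50% of the shorter peak shared, the control shares were 53.5% (interval 49.4% to 57.6%) and 60.7% (54.8% to 66.4%), and these intervals overlap. The *Wtap*-BKO shares were 50.5% (46.1% to 54.9%) and 62.9% (56.8% to 68.6%), without overlap.

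**Figure D3:**
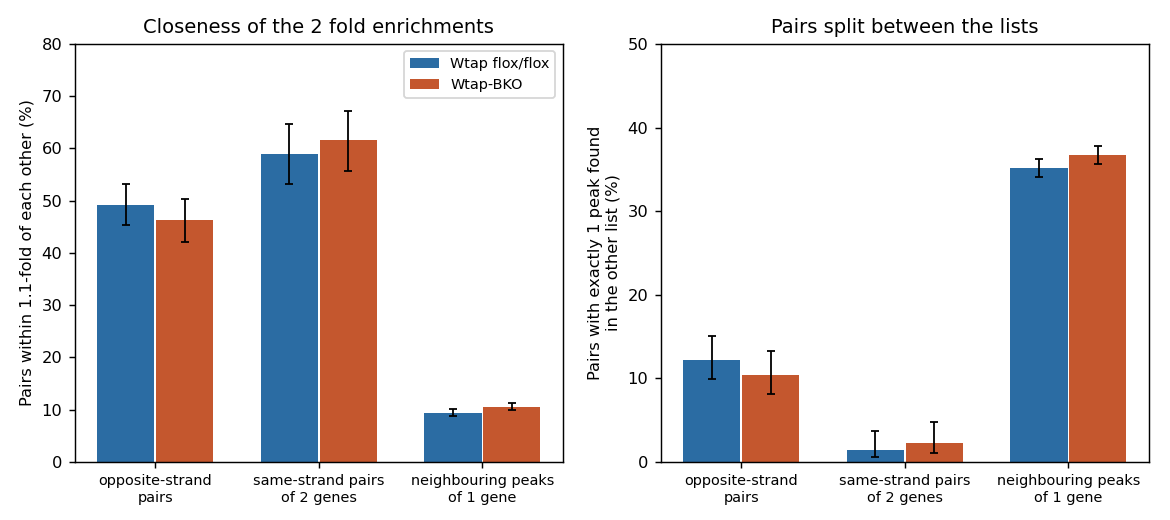
Left, share of peak pairs (%) whose 2 fold enrichments were within 1.1-fold. Right, share of pairs (%) of which exactly 1 peak was found in the other genotype's list. Bars show opposite-strand pairs, same-strand pairs of different genes and neighbouring peaks of 1 gene in each list, with 95% Wilson intervals. Opposite-strand pairs are close in fold enrichment in 49.2% and 46.2% of cases, against 9.42% and 10.5% for neighbouring peaks.

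In the pairs of a named gene with a gene of no symbol, neither side was regularly the more enriched. In the control list, the gene without a symbol had the higher fold enrichment in 146 of 322 peak pairs, the named gene in 143, and they were equal in 33. The *Wtap*-BKO counts were 130, 136 and 32 of 298. Among the pairs more than 1.5-fold apart, the named gene was the higher in 55 of 92 control and 44 of 79 *Wtap*-BKO pairs.

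A minority of pairs stood far apart. The 2 fold enrichments differed by more than 4-fold in 21 control and 16 *Wtap*-BKO pairs. The widest control pair was *Tob2*, an antiproliferative factor that recruits mRNA deadenylases, with a gene of no symbol (ENSMUSG00000116075), at 39.0 against 4.10, although they shared 197 bases. The widest *Wtap*-BKO pair was *Gcnt2*, a glycosyltransferase, at 5.31 against 39.4 for a gene of no symbol, with 34 bases shared. Another *Gcnt2* peak, of 37.2, shared 162 bases with the same peak of 39.4 and was 1.06-fold apart from it. Other named members were *Jun*, the AP-1 subunit, at 12.9 against 2.72 in the control list, *Me1*, the cytosolic malic enzyme, at 33.7 against 7.49, and *Cish*, a suppressor of cytokine signalling, at 10.6 against 2.59. In 16 of the 21 control pairs and 9 of the 16 *Wtap*-BKO pairs at least 50% of the shorter peak was shared, and 1 peak was at least 2 times as long as its partner in 12 and 10 of them.

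The 318 gene pairs found in both lists were 62.1% of the control pairs (interval 57.8% to 66.2%) and 69.9% of the *Wtap*-BKO pairs (interval 65.5% to 73.9%). Pairs with strong peaks recurred more often. When the control pairs were ordered by the FDR of their weaker peak and divided into 5 parts, 84.3%, 82.4%, 62.1%, 43.1% and 38.8% were also *Wtap*-BKO pairs, from the strongest part to the weakest. Of the *Wtap*-BKO pairs, ordered in the same way, the shares that were also control pairs were 97.8%, 86.8%, 63.7%, 51.6% and 49.5%. Pairs of 2 named genes recurred in 58.9% of control and 72.1% of *Wtap*-BKO cases, and pairs of a named gene with a gene of no symbol in 63.9% and 67.9%. In 308 of the 318 pairs the shared bases of the 2 lists overlapped each other.

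For each recurring gene pair, the strongest peak pair of one list was set against that of the other, and the spans of their shared bases overlapped in 290 of the 318. The log2 ratio of plus-strand to minus-strand fold enrichment in the control list correlated with that in the *Wtap*-BKO list with a Pearson correlation of 0.27 and a Spearman correlation of 0.27 across 318 pairs. The strongest peak pair was within 1.1-fold in 160 gene pairs in the control list and 155 in the *Wtap*-BKO list. In 102 (32.1%) it was so in both lists, and in 105 (33%) in neither. Of 82 pairs more than 1.5-fold apart in the control list, 32 were so in the *Wtap*-BKO list too, with the same gene the higher in 26. For comparison, 76.2% of all 558 *Wtap*-BKO peak pairs were within 1.5-fold. The same share was not taken over the 318 gene pairs, and whether these overlaps exceed what the separate shares imply was not tested.

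Of the control opposite-strand peaks, 767 (63.5%, interval 60.7% to 66.2%) had a same-strand *Wtap*-BKO peak on them, where the share over the whole control list was 67.8% and that of the other peaks 68.1% (interval 67.4% to 68.8%). In the *Wtap*-BKO list the order was the opposite. There, 762 opposite-strand peaks (71.2%, interval 68.4% to 73.8%) had a control peak on them, where the share over the list was 68% and that of the other peaks 67.8% (interval 67.1% to 68.5%). The intervals of opposite-strand and other peaks do not overlap in the control list and overlap narrowly in the *Wtap*-BKO list. These intervals take each peak as independent, while the peaks of a pair tended to be found or missed together, as given below. Those of the opposite-strand peaks are therefore too narrow, and they cannot decide whether the shares differ in either list. With an FDR under 1e-05 the control shares were 74.9% for opposite-strand peaks and 79.6% over the list, and the *Wtap*-BKO shares were 85.1% and 84.6%. On genes without a symbol, opposite-strand peaks were found in the other list in 61.1% of control and 67.0% of *Wtap*-BKO cases, against 52.2% and 52.9% of the other peaks on such genes. On named genes the shares were 64.5% against 69.2% in the control list, where the other peaks were ahead, and 72.9% against 68.6% in the *Wtap*-BKO list.

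The 2 peaks of a pair tended to be found or missed together. Of the control pairs, both peaks were found in the *Wtap*-BKO list in 363 (57.6%), neither in 190 (30.2%) and exactly 1 in 77 (12.2%). Of the *Wtap*-BKO pairs, both were found in the control list in 369 (66.1%), neither in 131 (23.5%) and exactly 1 in 58 (10.4%). Among neighbouring peaks of 1 gene, exactly 1 was found in 35.2% of control and 36.7% of *Wtap*-BKO pairs, and among same-strand pairs of different genes in 1.44% and 2.24%. The peaks of an opposite-strand pair share bases and may share reads, which favours their being found together. Neighbouring peaks were not chosen for shared bases. Where only 1 peak of an opposite-strand pair was found and the FDRs differed, it was the one with the smaller FDR in 65 of 76 control and 46 of 56 *Wtap*-BKO pairs.

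Of the 194 gene pairs found in the control list only, the shared bases carried no *Wtap*-BKO peak of either gene in 148 (76.3%) and a peak of 1 gene in 46 (23.7%). Of the 137 found in the *Wtap*-BKO list only, they carried no control peak of either gene in 101 (73.7%) and a peak of 1 gene in 36 (26.3%). In pairs of a named gene with a gene of no symbol where 1 gene kept a peak there, it was the named gene in 22 control-only pairs and the other in 2, and the named gene in 12 *Wtap*-BKO-only pairs and the other in 7. Opposite-strand peaks also touch the lists of genes that have peaks in 1 genotype only. Of 1718 genes with peaks in the control list alone, 186 (10.8%) had at least 1 opposite-strand peak, against 10.3% of all genes of that list, and of 1699 genes with peaks in the *Wtap*-BKO list alone, 134 (7.89%) did, against 9.10%. Of the same control-only genes, 156 (9.08%) had no other kind of peak, as had 119 (7.0%) of the *Wtap*-BKO-only genes, against 5.50% and 5.16% of all genes of these lists. A gene with 1 peak meets this condition more easily than a gene with several, and the number of peaks per gene was not matched here.

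The strongest recurring pairs of named genes, ranked by the FDR of the weaker peak in the control list, were led by *Atf5* (ENSMUSG00000038539), a transcription factor of the stress response. *Atf5* and *Nup62* (ENSMUSG00000109511), a nuclear pore protein, lie head to head, and their peaks shared 82 bases at chr7:44816402-44816483 in both lists. *Nup62* had a fold enrichment of 9.28 and *Atf5* of 29.4 in the control list, and 6.98 and 15.9 in the *Wtap*-BKO list. *Il4i1*, a secreted amino acid oxidase, shared the same 82 bases with *Atf5* through a first block at the same place, at 5.38 in the control and 7.11 in the *Wtap*-BKO list. *Atf5* was the more enriched gene of both pairs in both lists, and in these pairs only 30.5% and 34.0% of the shorter control peak was shared.

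*Abi3* was paired in this way with both *Phospho1* and the zinc finger gene *Zfp652*, whose peaks cover nearly the same bases. *Phospho1* lies tail to tail with *Abi3*, while the RefSeq spans of *Zfp652* and *Abi3* do not overlap. In the control list, *Phospho1* and *Abi3* had fold enrichments of 3.80 and 3.69, with an FDR given as 0 for both. The *Wtap*-BKO list had 2 shorter peak pairs within the same stretch, at 1.83 and 1.82 over 353 shared bases and at 1.83 and 1.83 over 418. A further overlap with *Zfp652* downstream had 9.96 for *Zfp652* and 10.1 for *Abi3* in the control list and 9.40 and 8.27 in the *Wtap*-BKO list. At each of these places the genes on both strands had nearly the same fold enrichment, the last *Wtap*-BKO overlap being 1.14-fold apart.

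*Acot11* (ENSMUSG00000034853) encodes an acyl-CoA thioesterase known from brown fat, and lies tail to tail with *Fam151a* (ENSMUSG00000034871). In the control list, a *Fam151a* peak of 947 bases in several blocks had a fold enrichment of 8.00 and shared 681 bases at chr4:106747612-106748292 with an *Acot11* peak of 8.07. The log10 FDRs of these peaks were −265 and −266. The same *Fam151a* peak also touched *Acot11* peaks of 3.24 and 3.49, with 89 and 49 shared bases. In the *Wtap*-BKO list the region held 3 separate peak pairs, at 2.57 and 2.28, at 2.23 and 1.96, and at 1.58 and 1.62 for *Fam151a* and *Acot11*, and the log10 FDRs ran from −20.6 to −6.61.

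*Echdc1*, a metabolite-repair decarboxylase, and *Rnf146*, an E3 ubiquitin ligase, lie tail to tail as well and overlapped at 2 places. They had 4.21 and 4.21 at the first and 12.3 and 12.2 at the second in the control list, and 2.13 and 2.16, then 11.5 and 8.83, in the *Wtap*-BKO list.

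**Figure D4:**
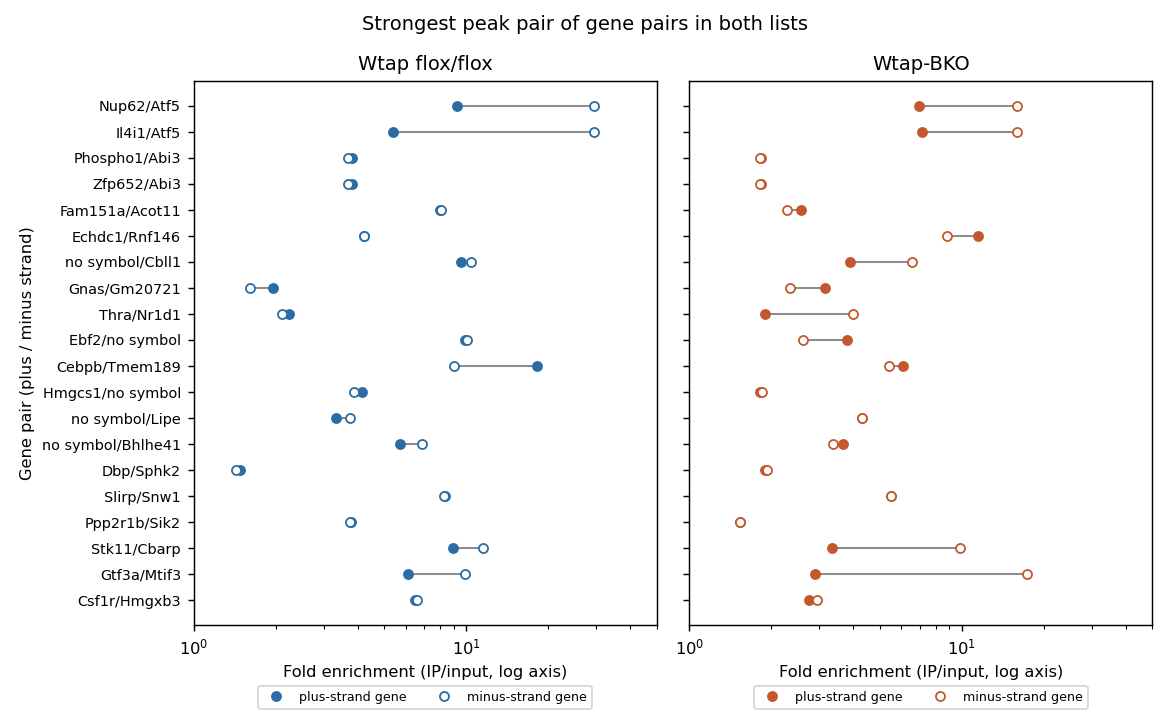
Fold enrichment (IP over input, log axis) of the plus-strand gene (filled) and the minus-strand gene (open) in the strongest peak pair, by the FDR of the weaker peak, of 20 named gene pairs found in both lists. The strongest pair need not lie at the same place in both lists, and no common scale of the lists is stated. Many pairs nearly coincide, while *Nup62*/*Atf5* and *Il4i1*/*Atf5* stand apart in both lists and *Thra*/*Nr1d1*, *Stk11*/*Cbarp* and *Gtf3a*/*Mtif3* mainly in the *Wtap*-BKO list. *Cebpb*/*Tmem189* stands apart mainly in the *Wtap* flox/flox list.

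The strongest pairs found in the control list only included pairs with no *Wtap*-BKO peak on either gene's overlap. *Glmp*, a lysosomal membrane protein, and *Tmem79* had fold enrichments of 4.66 and 4.70 over 863 shared bases at chr3:88329041-88329903. The mitochondrial ribosomal protein gene *Mrps34* and *Mapk8ip3*, a scaffold of the JNK pathway, had 5.56 and 5.59 over 440 bases. *Ddhd1*, a phospholipase, had 7.30 and its partner of no symbol 7.22. For neither peak of these 3 pairs was a *Wtap*-BKO peak found, although the log10 FDR of each was −85.8 or stronger. In 2 further pairs a peak was found but not the overlap. *Mrpl12*, another mitochondrial ribosomal protein gene, had a peak of 5.84 that was found in the *Wtap*-BKO list, against 3.63 for its partner of no symbol, which was not. *Vps4a*, an ESCRT ATPase, at 5.45, and *Pdf*, the mitochondrial peptide deformylase, at 9.05, both had *Wtap*-BKO peaks, of 2.11 and 3.41, which lay 7 bases apart.

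The strongest pair found in the *Wtap*-BKO list only was mitochondrial. *mt-Nd5* and *mt-Nd6* encode subunits of respiratory complex I on the 2 strands of the mitochondrial genome and meet at their 3ʹ ends. Their peaks had fold enrichments of 2.45 and 3.15, both with an FDR given as 0, and shared 14 bases at chrMT:13552-13565. Both peaks were found in the control list, where they did not overlap. The ferritin light chain gene *Ftl1* had 1.58 and its partner of no symbol 1.57 over 178 bases. *Cavin3*, a component of caveolae, had 34.9 and its partner 16.7, and *Angptl6*, an angiopoietin-like secreted factor, had 6.30 against 14.0 for *A230050P20Rik*. *Cox20*, an assembly factor of cytochrome c oxidase, and *Hnrnpu*, a nuclear RNA-binding protein, had 2.07 and 1.86. Except for the *A230050P20Rik* peak, these 4 pairs had no control peak on either gene's peak.

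The genes with a known antisense partner were looked at next. *Thra* (ENSMUSG00000058756), the thyroid hormone receptor alpha, and *Nr1d1* (ENSMUSG00000020889), the clock repressor REV-ERBα, are a textbook tail-to-tail pair, in which only some *Thra* transcripts reach into *Nr1d1*. Their peaks shared the same 41 bases at chr11:98768157-98768197 in both lists. *Thra* had a fold enrichment of 2.23 with a log10 FDR of −7.99 in the control list and 1.89 with −6.73 in the *Wtap*-BKO list. *Nr1d1* had 2.11 with −12.6 in the control list and 3.97 with −49.4 in the *Wtap*-BKO list. The peaks had the same bounds in both lists, and the pair was 1.06-fold apart in the control and 2.10-fold apart in the *Wtap*-BKO list.

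*Fgf2*, a growth factor, and *Nudt6*, whose transcript is known as its antisense, formed a pair in the control list only. Both had a fold enrichment of 5.26 and a log10 FDR of −37.6, over 389 shared bases at chr3:37405060-37405448, and neither peak was found in the *Wtap*-BKO list. *Gnas*, the imprinted gene of the stimulatory G protein subunit, was paired with *Gm20721* in both lists, at 1.95 and 1.61 in the control list and 3.15 and 2.34 in the *Wtap*-BKO list. A second *Wtap*-BKO overlap of these genes stood 6.86-fold apart, with 8.64 for *Gnas* and 1.26 for *Gm20721*. In all, 5 of the 12 genes of known antisense pairs with a control peak had an opposite-strand peak, and 3 of the 10 with a *Wtap*-BKO peak. Over all genes with a symbol, 709 of 8770 (8.08%) did in the control list and 607 of 8744 (6.94%) in the *Wtap*-BKO list. The genes were listed because an antisense partner is known, so a share above that of all genes is built into the choice. Both genes of a pair were counted, and the genes with an opposite-strand peak belong to only 3 pairs. Symbols that name a gene as the opposite strand of its partner occurred in 2 pairs. *Wdr83os* and *Wdr83* had 4.93 each with a log10 FDR of −5.46 each in the *Wtap*-BKO list only, and *Zbtb8os* and *Zbtb8a* had 19.5 and 9.74 in the control list only.

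**Figure D5:**
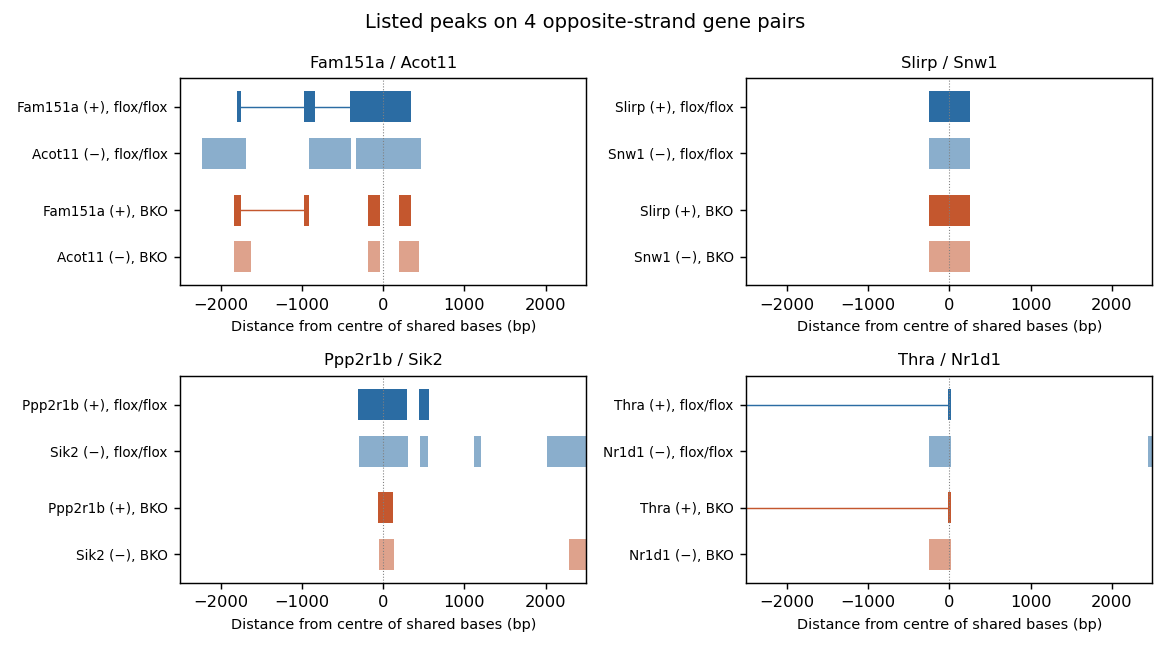
Listed peaks of 4 recurring gene pairs, by distance in bp from the centre of the shared bases of the strongest *Wtap* flox/flox pair. Bars are exonic blocks, thin lines join the blocks of 1 peak, dark bars are the plus-strand and light bars the minus-strand gene, and each panel is cut off at 2500 bp. *Slirp*/*Snw1* and *Thra*/*Nr1d1* have the same bounds in both lists, with 503 and 41 shared bases, while the wide control overlap of *Fam151a*/*Acot11* corresponds to separate shorter peaks in the *Wtap*-BKO list.

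Of the m6A machinery, 16 genes had a peak in each list. Over all genes with a symbol, 8.08% and 6.94% had an opposite-strand peak, and of these 16 genes 1 (6.25%) did, in both lists. This was *Cbll1*, a ubiquitin ligase associated with the methyltransferase complex, at 10.4 against 9.58 for a gene of no symbol in the control list and 6.57 against 3.88 in the *Wtap*-BKO list. *Prdm16* (ENSMUSG00000039410), a transcriptional regulator of brown fat identity, had an opposite-strand peak in the control list only. Its fold enrichment of 30.0 stood against 12.7 for *B230104I21Rik*, and their log10 FDRs were −7.32 and −2.37. The 2 peaks shared 25 bases at chr4:154341288-154341312, and neither was found in the *Wtap*-BKO list. The other 3 of the 4 genes that the study discusses by name in its m6A text had no opposite-strand peak in either list. All 4 genes, *Prdm16* included, had at least 1 listed peak in each list.

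Of the genes of brown adipocytes and thermogenesis, 5 of 43 with a control peak (11.6%) and 5 of 39 with a *Wtap*-BKO peak (12.8%) had an opposite-strand peak. The shares over all genes with a symbol were 8.08% and 6.94%, and counts of 5 genes are small. *Acot11*, *Cebpb* and *Ebf2* had an opposite-strand peak in both lists. *Ebf2*, a transcription factor of brown preadipocytes, had 9.86 against 10.1 for its partner of no symbol in the control list and 3.79 against 2.61 in the *Wtap*-BKO list. *Cebpb*, an adipogenic transcription factor, had 18.2 against 9.05 for *Tmem189* in the control list and 6.06 against 5.41 in the *Wtap*-BKO list. *Nrg4*, a growth factor secreted by brown fat, was paired with *Fbxo22* in the control list only, at 3.90 against 2.21. *Adrb3*, the beta-3 adrenergic receptor, and *Cidea*, a lipid droplet protein, were paired with genes of no symbol in the *Wtap*-BKO list only. *Adrb3* had 13.7 against 14.4, and *Cidea* had 3.16 against 6.57 over 20 shared bases.

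In lipid metabolism, 2 of 40 genes with a control peak (5.0%) and 3 of 41 with a *Wtap*-BKO peak (7.32%) had an opposite-strand peak. The shares over all genes with a symbol were 8.08% and 6.94%. *Hmgcs1*, an enzyme of cholesterol synthesis, had 4.15 against 3.87 in the control list and 1.82 against 1.84 in the *Wtap*-BKO list. *Lipe*, the hormone-sensitive lipase, had a long spliced peak of 3.73 in the control list and 4.30 in the *Wtap*-BKO list, against 3.32 and 4.30 for its partner of no symbol. *Acadvl*, the very long-chain acyl-CoA dehydrogenase, was paired with *Dvl2* in the *Wtap*-BKO list only, at 1.35 against 1.38, both low.

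Of 21 clock genes with a peak in each list, 3 had an opposite-strand peak (14.3%). The shares over all genes with a symbol were 8.08% and 6.94%. All 3 clock genes had it in both lists. Beside *Nr1d1* these were *Bhlhe41*, a repressor, at 6.90 against 5.69 in the control and 3.37 against 3.66 in the *Wtap*-BKO list, and *Dbp*, an activator, with the sphingosine kinase *Sphk2*. *Dbp* and *Sphk2* had 1.48 and 1.43 in the control list and 1.89 and 1.93 in the *Wtap*-BKO list, at different places.

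Of the genes of mitochondrial gene expression, 7 of 104 with a control peak (6.73%) and 5 of 77 with a *Wtap*-BKO peak (6.49%) had an opposite-strand peak. The shares over all genes with a symbol were 8.08% and 6.94%. Of the 10 pairs with a gene of mitochondrial gene expression, 2 were in both lists. *Slirp* (ENSMUSG00000021040), which stabilises mitochondrial mRNA, and *Snw1*, a splicing cofactor, shared the same 503 bases at chr12:87450182-87450684 in both lists. *Slirp* and *Snw1* had 8.37 and 8.31 in the control list and 5.51 and 5.48 in the *Wtap*-BKO list. The other pair was *Mtif3*, a mitochondrial translation initiation factor, with *Gtf3a*, a factor of RNA polymerase III transcription. *Mtif3* had 9.89 against 6.12 in the control list and 17.4 against 2.90 in the *Wtap*-BKO list, and it was the higher in both.

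For insulin and AMPK signalling, 2 of 40 genes with a control peak (5.0%) and 4 of 39 with a *Wtap*-BKO peak (10.3%) had an opposite-strand peak. The shares over all genes with a symbol were 8.08% and 6.94%. *Sik2*, a salt-inducible kinase, and *Ppp2r1b*, a scaffold subunit of protein phosphatase 2A, had 3.73 and 3.78 over 589 shared bases at chr9:50892981-50893569 in the control list and 1.54 and 1.53 over 169 bases in the *Wtap*-BKO list. *Stk11*, the kinase LKB1 upstream of AMPK, and *Cbarp* shared the same 210 bases at chr10:80130473-80130682 in both lists. *Stk11* had 8.96 against 11.5 for *Cbarp* in the control list and 3.33 against 9.86 in the *Wtap*-BKO list. *Gsk3a* and *Irs1*, the insulin receptor substrate, were paired in the *Wtap*-BKO list only, *Gsk3a* at 1.99 against 2.69 and 2.37 for 2 peaks of a gene of no symbol and *Irs1* at 2.0 against 1.97 for *Gm9747*. No chromatin or transcription regulator of the list used here had an opposite-strand peak, out of 42 with a control peak and 44 with a *Wtap*-BKO peak. The macrophage receptor gene *Csf1r* was paired with *Hmgxb3* in both lists, at 6.46 against 6.60 in the control and 2.74 against 2.95 in the *Wtap*-BKO list.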

How the data were processed

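m6A peaks were taken from 2 lists, 1 per genotype, each called by the authors on 1 pooled IP against 1 pooled input at an FDR under 0.05. The deposited p-value of each peak was not used beyond reading the file. The deposited log10 p-value and log10 FDR were treated as scores, and an FDR of 0 (147 control and 83 *Wtap*-BKO peaks) was ranked first. The deposited fold enrichment is the authors' ratio of IP over input, and its scaling for library size is not given in the sources used here. The methods name MACS2 as peak caller, while the spliced blocks on Ensembl genes resemble the layout of exomePeak, and which of them made the lists could not be settled. The submitters' processing notes also name fastp 0.19.11, BWA 0.7.12 and HOMER 4.9.1.

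Blocks were intersected by strand in Python 3.11.15 with numpy 2.4.6, scipy 1.17.1 and pandas 2.3.3. Figures were made with matplotlib 3.10.9. The overlap search was tested on simulated data. Finding a peak in the other list required a same-strand peak there with at least 1 exonic base in common. Gene spans came from a RefSeq table of GRCm38.p6, matched by symbol and chromosome, which placed 828 of 856 control and 716 of 743 *Wtap*-BKO opposite-strand peaks with a symbol. Peak sequences were not analysed here.

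Named pairs were the 8 strongest recurring pairs of named genes, the 5 strongest pairs of each list alone, pairs of listed genes (the 3 strongest for the larger lists), pairs with an opposite-strand symbol, and those with most shared bases (3) or most peaks. The members, gene lists and rules were chosen with earlier results of these data known. The same-strand comparison, the classes by shared share, the widest pairs and the pairs of *Cidea*, *Adrb3*, *Nrg4*, *Irs1*, *Csf1r* and *Mtif3* were chosen after their values were seen. Of the pairs this rule names, 3 are not reported here. No test was made, since there is 1 pooled sample per genotype.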

Additional observations from a re-analysis of the deposited data

How the results depend on the processing

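With peaks of an FDR under 1e-05 in both positions, 746 control and 586 *Wtap*-BKO peaks, 332 and 261 gene pairs and 191 shared gene pairs remained, and the share of control pairs found in both lists moved to 57.5%. With pairs restricted to 2 genes with a symbol, there were 535 and 452 peaks, 233 and 191 gene pairs and 140 shared pairs. Both settings have fewer peaks by construction. Asking for 50% of the shorter peak (1098 and 972 peaks), using whole genomic spans (1260 and 1119 peaks) or leaving out the mitochondrial chromosome (1208 and 1068 peaks) kept the counts of peaks and pairs within 1.5 times. With at least 50% of the shorter peak shared, 53.5% of control and 50.5% of *Wtap*-BKO pairs were within 1.1-fold. The shares of opposite-strand peaks found in the other list became 53.0% and 66.3% when 50% of the bases had to be shared, and 74.9% and 85.1% with an FDR under 1e-05. Within 500 bp of the 3ʹ end the shares were 17.3% and 17.6%, and within 2000 bp 48.3% and 43.8%. No paired analysis was possible because each genotype has 1 pooled IP and 1 pooled input, and for the same reason no replicate could be left out. The depth is unknown, so the absence of a peak says no more than that the authors' threshold was not reached.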
